A study of Mus musculus with 67 samples.

Results

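The spliceosome removes introns from pre-mRNA. Its small nuclear ribonucleoproteins (snRNPs) each hold a small nuclear RNA inside a ring of Sm proteins, and U6 carries a ring of LSm proteins in their place. U1 marks the 5′ splice site, U2AF and U2 mark the 3′ splice site and the branch point, and the U4/U6.U5 tri-snRNP and the Prp19 complex then join to build the catalytic form. The early embryo starts with spliceosome mRNA stored in the oocyte and makes its own once zygotic transcription begins.

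RNA for 50 genes, called spliceosome genes here, was followed through mouse preimplantation development with and without light. Most code for core spliceosome proteins, but Lsm11 and Lsm14b, for example, code for proteins of other particles. The genes were taken by symbol from the 26414 genes of the deposited table: Snrp (without the imprinted Snrpn), Sf3a and Sf3b, Prpf, Lsm and U2af genes, together with Ctnnbl1. Rules on symbols matched 52 rows, of which Snrpn and the pseudogene Snrp1c-ps1 were left out. By role, 7 genes coded for the Sm core, 2 for U1 proteins, 11 for U2 proteins, 2 for U2AF, 7 for the U6 LSm ring, 6 for other Lsm proteins, 5 for U4/U6 and U5 proteins, 2 for the Prp19 complex and 7 for other Prpf proteins. The remaining gene, Snrpert, is annotated as a processed pseudogene near-identical to Snrpe, so reads of this pair could be assigned to either.

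C57BL/6 embryos were obtained by in vitro fertilization from females of 6 weeks and males of 10 weeks. In the light group, 2-cell embryos were placed under a full-spectrum bulb at 5000 lx for 6 h and then returned to the dark, and in the control group they were kept dark. Both groups shared superovulation, fertilization in vitro and culture. SMART-seq2 libraries, which cover whole polyadenylated transcripts after amplification, numbered 7 for control and 6 for light 2-cell embryos. There were 6 control and 8 light libraries of 4-cell embryos, 4 and 8 of 8-cell embryos, 13 and 6 of morulae, and 3 and 6 of blastocysts. Each of the 67 libraries carried its own embryo number in the labels, while the methods described manually picked single cells, so libraries may share an embryo and the p-values measure the spread between libraries only. A level here is a relative amount, and more RNA per cell cannot be told apart from a smaller share of other RNA.

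Reads per library ranged from 836011 to 8551674 with a median of 4632053, and 54.0% to 89.3% of them lay on Gm42418 and CT010467.1, which overlap ribosomal RNA repeats. Values are normalised reads, that is, reads divided by a size factor per library. The part of this pair in the size factor was not tested. The ratio of Gm42418 to CT010467.1 was 2.34 to 4.03 in control and 1.58 to 1.77 in light 2-cell libraries. It was 2.01 to 2.34 and 1.52 to 1.71 at the 8-cell stage and 2.34 to 4.14 and 1.49 to 1.67 in morulae. Library composition and light cannot be told apart at these 3 stages. At the 4-cell stage the ratio was 1.61 to 4.55 in control and 1.43 to 1.63 in light libraries. Only control replicate 3 (1.61) and light replicate 5 (1.63) overlapped there, and the part of composition in the 4-cell results was not tested. In blastocysts the ranges overlapped, at 1.42 to 1.45 and 1.29 to 1.75. The summed level of 5 oocyte markers (Gdf9, Bmp15, Zp3, Oosp1 and H1foo, each detected) was 2218 to 5090 in control and 649 to 1869 in light 2-cell libraries, with no overlap. Of 5 cumulus markers 2 were in the table, Ptgs2 and Tnfaip6, and their sum was 0 to 5.52 in control and 0 to 57.5 in light 2-cell libraries. The sum of 6 markers of the transient 2-cell state was 191 to 570 in control and 55.3 to 1114 in light 2-cell libraries, with overlap. The part of these values in the results was not tested. The summed level of 6 trophectoderm markers had a median of 2872 in control and 3871 in light blastocysts, against 137.6 and 119.6 at the 4-cell stage, and the lowest control blastocyst (455) lay within the control morula range (171 to 1652). The transient 2-cell sum did not follow the stage labels throughout, at 0 to 6.57 in control 4-cell and 25.0 to 164 in control 8-cell libraries. Control 4-cell replicate 3 held the lowest value of its 6 libraries in 19 of the 50 spliceosome genes, and values without it are given where they change. Replicate 2 was lowest in 14. Control 4-cell replicates 1 and 2 had 10647 and 10883 genes detected and ratios of 4.55 and 4.35. The other control 4-cell libraries had 12835 to 13370 genes and ratios of 1.61 to 1.98, and the part of this split was not tested.

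Promoters are shown for 5 of the 9 genes called between light and control 2-cell libraries, since these genes carry the main comparison. RefSeq (GRCm38.p6) gave a promoter for 39 of the 50 genes, and Snrpb and Lsm12 were not among them. Snrpa and Prpf3, which have 2 listed promoters each, are described after the printed lines. Each line holds the 150 bases before the transcription start, 5′ to 3′ on the strand of the gene. Capitals mark 3 motifs searched on both strands: the GC box GGGCGG (reverse CCGCCC), the CCAAT box CCAAT (reverse ATTGG) and the ETS core CCGGAAG (reverse CTTCCGG). In Sf3b6 a GC box and an ETS core adjoin and form a single run of capitals.
Ctnnbl1, chr2:157737251-157737400, plus strand: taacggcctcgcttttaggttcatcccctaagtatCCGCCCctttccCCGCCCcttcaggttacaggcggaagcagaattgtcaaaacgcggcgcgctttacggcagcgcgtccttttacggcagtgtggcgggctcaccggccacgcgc
Snrpa1, chr7:66060186-66060335, plus strand: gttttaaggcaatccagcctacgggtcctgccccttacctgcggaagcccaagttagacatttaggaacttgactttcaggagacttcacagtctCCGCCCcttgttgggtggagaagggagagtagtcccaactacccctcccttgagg
Sf3b6, chr12:4817458-4817607, plus strand: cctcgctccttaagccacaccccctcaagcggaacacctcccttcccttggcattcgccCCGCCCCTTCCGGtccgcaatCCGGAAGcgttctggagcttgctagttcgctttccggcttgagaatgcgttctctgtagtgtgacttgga
Lsm5, chr6:56704700-56704849, minus strand: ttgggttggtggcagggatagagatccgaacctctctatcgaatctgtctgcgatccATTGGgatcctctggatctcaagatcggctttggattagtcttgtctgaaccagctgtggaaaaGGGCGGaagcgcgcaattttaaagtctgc
Lsm14b, chr2:180024837-180024986, plus strand: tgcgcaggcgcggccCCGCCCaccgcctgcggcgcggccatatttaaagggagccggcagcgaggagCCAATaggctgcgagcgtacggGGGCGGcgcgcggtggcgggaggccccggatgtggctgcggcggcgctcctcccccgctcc

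A gene was counted when any of its listed promoters held the motif in the 250 bases before the start. The ETS core was found in 13 of the 39 genes (33.3%) and in 10.2% of the 17492 protein-coding genes. The GC box was present in 24 of 39 (61.5%) against 45.8%, and CCAAT in 16 of 39 (41.0%) against 39.5%. Among the genes printed above, Sf3b6 held ETS cores within the stretch shown, and Ctnnbl1, Snrpa1, Lsm5 and Lsm14b held GC boxes without an ETS core there. Over the 250 bases Lsm5 held an ETS core as well. Of the 2 promoters of Prpf3, 1 held an ETS core in its 150 bases, and neither promoter of Snrpa held any of the 3 motifs there. Over the 250 bases Snrpa held a GC box. Lsm14b, the printed gene that was lower after light, shared its GC boxes with genes that were higher. These matches describe letters and not bound sites.

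Levels between genes were compared per kilobase of annotated exon, as the mean of the 5 control stage means. The length was the union of all annotated exons of a gene, for example 7278 bases in Prpf19 and 2705 in Ctnnbl1. It can exceed the length of the transcript present, so the order of genes depends on the annotation. The 4 highest genes belonged to the Sm core, with Snrpb at 115.8, Snrpf at 105.9, Snrpe at 102.6 and Snrpg at 93.3 normalised reads per kb. Snrpd1 (45.8) and Snrpd3 (44.4) lay below several genes of other roles. Snrpd2 was the lowest Sm gene at 34.1, and its stage means ran from 8.83 per kb in blastocysts to 58.3 in 4-cell libraries. Snrpb itself ran from 25.3 per kb at the 2-cell to 226 at the 4-cell stage, so the order of the Sm genes was not fixed across stages.

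The other roles also held genes at different levels. Among U1 proteins Snrpc (70.5 per kb) lay above Snrpa (46.5), and among U2 proteins Sf3b4 (50.4) lay above Sf3b3 (15.1). U2af1 (30.7) lay above its partner U2af2 (16.1). In the LSm ring the highest was Lsm4 (65.5) and the lowest Lsm6 (8.13). Prpf8, the U5 protein at the catalytic centre, had 38.9 per kb and Prpf4 of U4/U6 had 5.70. In the Prp19 complex Ctnnbl1 had 21.4 and Prpf19 12.6. Lsm12 (81.6) and Lsm11 (1.68) bounded the other Lsm genes. Prpf40b (0.750) was the lowest of the 50 and was at 0 in 11 of 13 control morula libraries.

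Among the comparisons of light with control, the 2-cell stage, at which embryos had been exposed, had the most spliceosome genes called, with 8 of 50 higher and 1 lower. A gene was called in limma when its adjusted p was under 0.05 and it differed at least 2-fold on the log2(value + 1) scale, the scale of every fold change given here. Over all genes tested 10.5% were called, 5.53% higher and 4.96% lower. The fold change was above 0 in 35 of the 50, against 50.0% of all genes, and its median was 0.51 against 0.00. The higher genes came from 7 roles: Snrpb of the Sm core, Snrpa of U1, Snrpa1 and Sf3b6 of U2, Lsm5 of the U6 ring, Prpf3 of U4/U6, Ctnnbl1 of the Prp19 complex, and Lsm12. In 4 of the 50 the groups did not overlap at all, against 4.15% of all genes.

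**Figure D1:**
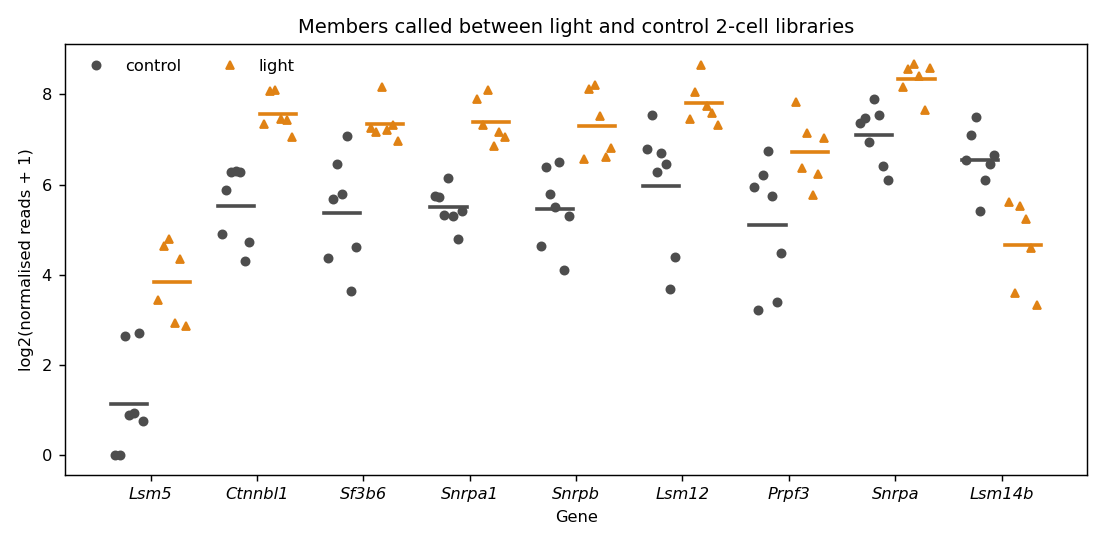
Level of the 9 called genes in each 2-cell library, as log2(normalised reads + 1), with control as grey circles (n = 7), light as orange triangles (n = 6) and bars at the group means of the log2 values. Ctnnbl1, Lsm5, Snrpa1 and Snrpb have no overlap between groups, and Lsm14b is the gene with light below control.

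Snrpb codes for SmB, a subunit of the ring that most spliceosomal RNAs carry. Control 2-cell libraries had a lowest, median and highest Snrpb level of 16.3, 44.3 and 89.1 normalised reads, and light libraries had 94.6, 148 and 293. Every light library lay above every control library. The difference was 1.85 ± 0.44 (SE) on the log2 scale, or 3.60-fold, with an adjusted p of 0.00558 (limma). It was the only gene of its ring that was called. Of the 7 Sm genes, 3 had a fold change above 0, Snrpb, Snrpd2 (0.96) and Snrpd1 (0.53), and the median was −0.27.

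Snrpa codes for the U1 A protein. Its level was 67.6, 165 and 236 (lowest, median and highest) in control and 202, 357 and 411 in light libraries. The groups overlapped at the lowest light library only. The fold change was 1.24 ± 0.32 (SE) on the log2 scale, with an adjusted p of 0.0117. Snrpa shares exon sequence with the neighbour BC024978, whose reads may be counted with it.

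U2, the role with the most genes, had 10 of 11 above 0 and a median of 0.95. Snrpa1, which codes for the U2 A′ protein, was at 26.6, 41.4 and 69.5 in control and at 115, 151 and 271 in light libraries. Light libraries all lay higher, by 1.90 ± 0.38 (SE) on the log2 scale (3.74-fold, adjusted p = 0.00108). Sf3b6, the SF3b subunit that lies near the branch point, was at 11.5, 50.03 and 135 in control and at 124, 149 and 285 in light libraries. The highest control library reached into the light range, and the difference was 1.97 ± 0.47 (SE), with an adjusted p of 0.00562. The other 9 U2 genes did not pass the test.

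Ctnnbl1 codes for a protein that binds the Prp19 complex. It was at 18.6, 58.4 and 78.2 in control and at 133, 172 and 273 in light 2-cell libraries. The groups were clearly apart, with means of 51.9 ± 26.7 (SD, n = 7) and 196.5 ± 59.2 (SD, n = 6) and a fold change of 2.05 ± 0.41 (SE) on the log2 scale (4.13-fold, adjusted p = 0.00117). Prpf19, the ubiquitin ligase that names the complex, had a fold change of 0.25 and was not called.

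Lsm5, a subunit of the U6 ring, had the highest fold change but few reads. Control libraries held 0 to 14 reads and light libraries 4 to 58, or 0 to 5.55 against 6.24 to 26.8 normalised reads. The groups did not overlap. The fold change was 2.70 ± 0.80 (SE) on the log2 scale, with an adjusted p of 0.0254, and the call was lost on leaving out control replicate 10, light replicate 12 or light replicate 14, with an adjusted p up to 0.0639. Lsm5 has near-identical copies (Gm10074 and Gm7846) elsewhere in the genome, which makes its count uncertain.

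Prpf3 (U4/U6) and Lsm12 were also higher. Prpf3 was at 8.34, 52.4 and 107 in control and at 53.4, 106 and 226 in light libraries, a difference of 1.62 ± 0.54 (SE) on the log2 scale with an adjusted p of 0.0466. The groups overlapped, and leaving out any of 7 of the 13 libraries (control replicates 8, 9 and 11, light replicates 9, 10, 12 and 14) ended the call. Lsm12 was at 11.9, 86.4 and 184 in control and at 158, 202 and 404 in light libraries, a difference of 1.83 ± 0.47 (SE) with an adjusted p of 0.0110. It has a near-identical copy, Gm9727.

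Lsm14b, whose protein belongs to stored and silenced mRNPs in the cytoplasm, was the gene that was lower. It was at 41.7, 92.7 and 179 in control and at 9.07, 30.01 and 47.6 in light libraries. The groups overlapped slightly, and the fold change was −1.88 ± 0.48 (SE) on the log2 scale, with an adjusted p of 0.00983. The oocyte marker sum moved the same way between these groups, and its part in the result was not tested. Lsm14a, the related gene, was at 298, 374 and 736 in control and at 291, 352 and 455 in light libraries and was not called.

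As a sum over the 50 genes, in CPM of the reads outside the ribosomal pair, control 2-cell libraries had 3594 ± 651 (SD, n = 7) and light libraries 5285 ± 1011 (SD, n = 6). The libraries overlapped, between 2643 and 4250 in control and between 3593 and 6096 in light. The shallowest light library, replicate 16, had the fewest reads of the series, and without it 11 genes were called in place of 9, Sf3a1 and Sf3a3 being added.

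Genes outside the set were read from lists of further spliceosome genes and of genes for snRNP assembly. Of 63 further spliceosome genes tested here, 7 lay higher and 1 lower, with a median of 0.49. Sart1 of the tri-snRNP (1.53, adjusted p = 0.0285) and Slu7 of the catalytic step (2.25, adjusted p = 0.00177) were among the higher genes. Of 19 snRNP assembly genes, which load Sm rings on RNA or process snRNA, 5 were higher and 1 lower, with a median of 0.94. Gemin5, which binds snRNA for the SMN complex, was higher by 2.38 on the log2 scale (adjusted p = 0.00044). Mepce, which caps 7SK RNA, was lower, with a fold change of −2.75.

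**Figure D2:**
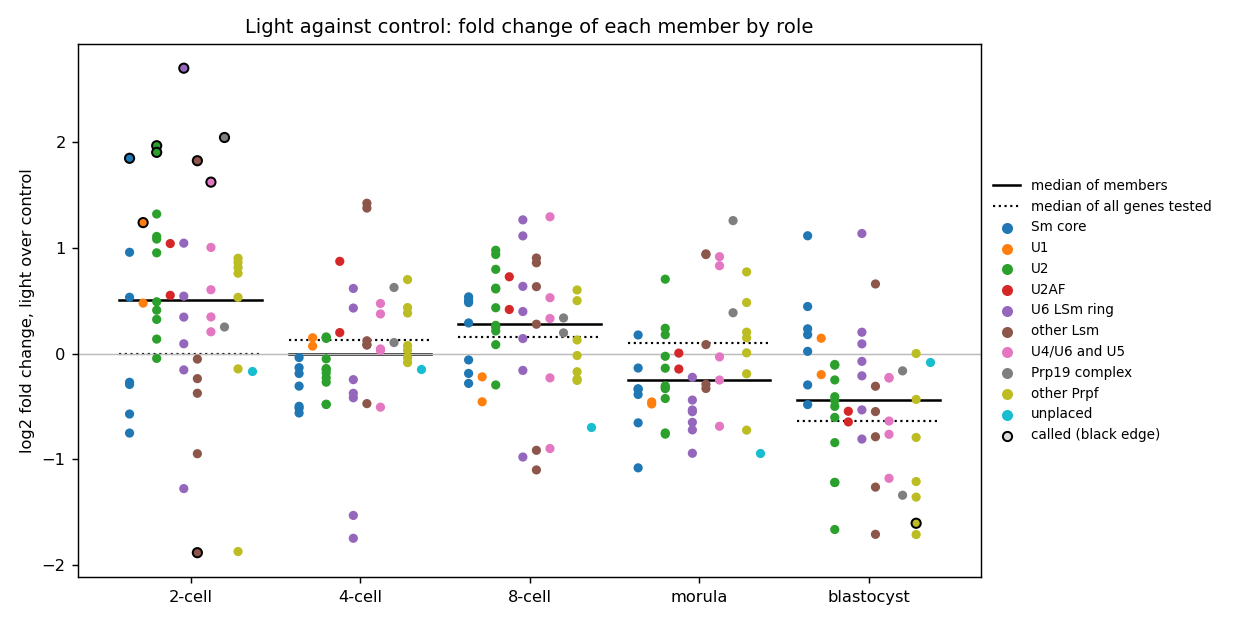
Log2 fold change of light over control for each gene at the 5 stages, coloured by role, with called genes outlined in black, the median of the spliceosome genes as a solid line and that of all genes tested as a dotted line. The called genes are 9 at the 2-cell stage and Prpf39 in blastocysts.

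In 4-cell embryos none of the 50 genes was called in limma, where 1.45% of all genes were. At an unadjusted p under 0.05 in limma there were 4 of 50, against 17.5% of all genes. With edgeR 1 gene was called (Lsm4), and with DESeq2 2 (Lsm4 and Lsm7). Of all 15010 genes tested, edgeR called 190 and DESeq2 754. The median fold change was −0.00 against 0.13 over all genes, and 25 of 50 lay above 0, where 55.8% of all genes did. Lsm4, of the U6 ring, was at 32.3, 136 and 164 in control and at 11.3, 42.2 and 59.6 in light libraries. Its limma fold change was −1.53 ± 0.45 (SE), with an adjusted p of 0.0718. Without control 4-cell replicate 3, the lowest control library, limma called Lsm4 (−1.87) and Lsm14a (1.65), making 2 calls in place of 0. Of the lists, 1 of 63 further spliceosome genes was lower and none of 19 assembly genes was called.

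At the 8-cell stage 0 of 50 were called in limma, edgeR and DESeq2, against 9.21% of all genes in limma. In limma 8 of 50 had an unadjusted p under 0.05, against 25.3% of all genes. The fold change was above 0 in 33 of 50, including 10 of 11 U2 genes, where 56.0% of all genes were, with a median of 0.28 against 0.16. Lsm12 came closest. Its 4 control libraries lay between 129 and 249 and its 8 light libraries between 253 and 397, with no overlap, which 5.61% of all genes tested shared. Its fold change of 0.90 ± 0.23 (SE) had an adjusted p of 0.0137 but stayed under 2-fold. Without control 8-cell replicate 1, limma called 3 genes higher: Prpf3 (1.78), Lsm12 (1.09) and Snrpa1 (1.01). Without light replicate 5, Sf3b4 (1.03) was called. The sum of 6 markers of the transient 2-cell state was 25.0 to 164 in control and 0.532 to 53.8 in light 8-cell libraries, and its part in these values was not tested. Of the lists, 6 of 63 further spliceosome genes were higher and 1 lower, and 5 of 19 assembly genes were higher.

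In morulae 49 of the 50 were tested and 0 were called in limma, edgeR and DESeq2, where limma called 1.18% of all genes. There were 4 of 49 with an unadjusted p under 0.05 in limma, against 15.3% of all genes. The fold change was above 0 in 17 of 49 genes, none of them in the U6 ring, where 54.9% of all genes were above 0, with a median of −0.25 against 0.10. Neither list had a called gene at this stage.

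In blastocysts Prpf39, which associates with U1, was the 1 gene called, and it was lower after light, where 5.34% of all genes were called and 4.98% were called lower. Its control libraries were at 72.6, 94.3 and 73.8 and its light libraries at 13.6, 26.9 and 39.6 (lowest, median and highest). The groups did not overlap. The fold change was −1.61 ± 0.48 (SE), the adjusted p was 0.0498, and leaving out any control library or any of 5 of the 6 light libraries ended the call. Prpf39 overlaps the exons of Fkbp3. Without light replicate 23, Sf3b1 (−1.35) and Sf3b3 (−1.38) were called lower as well.

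The direction of the whole set in blastocysts depended on the scaling. On deposited values 11 of 50 lay above 0, where 22.5% of all genes did, with a median of −0.44, while the median over all genes was −0.64, so the set lay 0.20 above it. With libraries scaled by the median ratio, 34 of 50 lay above 0 and the medians were 0.21 and −0.10, and Snrpd3 of the Sm core was called higher (1.77, adjusted p = 0.0267) while no gene was called lower. DESeq2 also called Snrpd3 (1.47), and edgeR called none. Snrpd3 was at 20.0, 159.3 and 46.9 in the 3 control libraries and between 91.2 and 134 in the light libraries, within the control range. In 7 genes the groups did not overlap on deposited values, against 12.5% of all genes: Ctnnbl1, Prpf38b, Prpf39, Prpf8, Sf3b1, Sf3b3 and Snrpa1. The sum of 6 inner cell mass markers was 275 to 1545 in control and 131 to 199 in light blastocysts, that of 6 trophectoderm markers 455 to 6094 and 2628 to 6789, and that of 4 primitive endoderm markers 42.4 to 480 and 65.9 to 129, with each marker detected in both groups. The part of cell type in these values was not tested. Of the lists, 2 of 63 further spliceosome genes were lower and 0 of 18 assembly genes were called.

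Ctnnbl1, followed through every stage, was called at the 2-cell stage alone among the comparisons of light. Its fold change was 0.10 ± 0.31 (SE) in 4-cell, 0.34 ± 0.40 in 8-cell, 1.26 ± 0.84 in morula and −1.34 ± 0.67 in blastocyst libraries, with adjusted p between 0.230 and 0.899. In control blastocysts it was at 12.6, 28.9 and 14.1, and light blastocysts lay between 3.49 and 9.90.

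Whether the effect of light differed between 2-cell and 4-cell embryos was tested by an interaction term, the light effect at the 4-cell minus that at the 2-cell stage. It was negative and called in 5 of 50 genes and positive in none, while 3.07% of all genes were called, 1.45% negative and 1.63% positive. The values were −2.16 ± 0.53 (SE) for Snrpb (adjusted p = 0.0212), −1.94 ± 0.51 for Ctnnbl1 (0.0297), −3.08 ± 0.85 for Lsm5 (0.0363), −1.76 ± 0.51 for Snrpa1 (0.0440) and −2.15 ± 0.62 for Sf3b6 (0.0460). In these genes light libraries were higher at the 2-cell stage and overlapped the control range at the 4-cell stage. Snrpb, for example, was at 216, 441 and 642 in control and at 234, 325 and 491 in light 4-cell libraries. The Snrpb call held on leaving out each of the 27 libraries in turn, whereas Ctnnbl1 lost it in 4, Lsm5 in 13, Snrpa1 in 18 and Sf3b6 in 19. The count of called genes was 1 without control 2-cell replicate 9, control 4-cell replicate 4 or light 2-cell replicate 12 or 14. It was 2 or 3 without control 2-cell replicate 8 or 10, control 4-cell replicate 1, 5 or 6, light 2-cell replicate 9 or 10 or light 4-cell replicate 1, 5, 6, 7, 13 or 14, and 7 without control 4-cell replicate 3. Of 64 further spliceosome genes 1 was called and negative, and of 19 assembly genes 1 was positive and 2 were negative.

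Without light, the course of these genes over development began with a large rise from the 2-cell to the 4-cell stage. Of 50 genes 16 rose and 4 fell, where 46.1% of all genes were called, 13.8% higher and 32.3% lower. The median was 0.60 against −0.72 over all genes. These control 2-cell libraries are the same ones that light was compared with above. The summed level outside the ribosomal pair was 3594 ± 651 CPM (SD, n = 7) at the 2-cell and 7072 ± 400 (SD, n = 6) at the 4-cell stage.

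The 4 largest rises were in Lsm5 and Lsm4 of the U6 ring, Snrpb of the Sm core and Sf3a3 of U2. Lsm5 went from 0, 0.869 and 5.55 (lowest, median and highest) to 9.12, 77.2 and 127 normalised reads, a change of 4.64 ± 0.74 (SE) on the log2 scale with an adjusted p of 2.68e-05. Snrpb went from 16.3, 44.3 and 89.1 to 216, 441 and 642 (3.24 ± 0.44, adjusted p = 4.43e-06). In both genes every 4-cell library lay above every 2-cell library. Sf3a3, a subunit of SF3a in U2, went from 4.16, 29.2 and 60.0 to 103, 203 and 291 (3.15 ± 0.61, adjusted p = 0.000238). Lsm4 went from 3.57, 15.6 and 27.6 to 32.3, 136 and 164 (3.11 ± 0.58, adjusted p = 0.000150). Control 4-cell replicate 3 gave the lowest Lsm4 value, still above the 2-cell range.

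By role, the genes that rose were 2 of 7 of the Sm core, 5 of 11 of U2, 3 of 7 of the U6 ring, 3 of 5 of U4/U6 and U5, Ctnnbl1, Prpf39 and Lsm12. Of the genes higher after light at the 2-cell stage, Ctnnbl1, Snrpa1, Snrpb, Lsm5 and Lsm12 were among them. Their rises were 1.53, 1.57, 3.24, 4.64 and 2.54, beside 2.05, 1.90, 1.85, 2.70 and 1.83 after light. Snrpa (0.10), Prpf3 (0.75) and Sf3b6 (1.34), also higher after light, were not called in this transition. Both differences use the same control 2-cell libraries. Of the lists, 14 of 64 further spliceosome genes rose and 5 fell, and 8 of 19 assembly genes rose and 1 fell.

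The genes that fell were mostly Lsm genes outside the U6 ring. Lsm14a went from 298, 374 and 736 to 5.24, 23.6 and 56.6 (−4.26 ± 0.48 SE, adjusted p = 3.19e-07), and Lsm14b from 41.7, 92.7 and 179 to 1.70, 9.81 and 23.6 (−3.41 ± 0.59, adjusted p = 7.12e-05). Lsm11, which belongs to the U7 snRNP of histone pre-mRNA processing, went from 11.3, 28.5 and 57.4 to 0, 0.655 and 6.84 (−3.80 ± 0.69, adjusted p = 0.000122). The stages did not overlap in these 3, which belonged to 12 such genes of the 50, against 20.4% of all genes. Lsm14a shares exons with 2310043P16Rik. Prpf38b went from 46.9, 135 and 160 to 23.9, 44.9 and 70.8 (−1.25 ± 0.46, adjusted p = 0.0313), with overlap, and lost its call on leaving out any of 7 of 13 libraries.

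**Figure D3:**
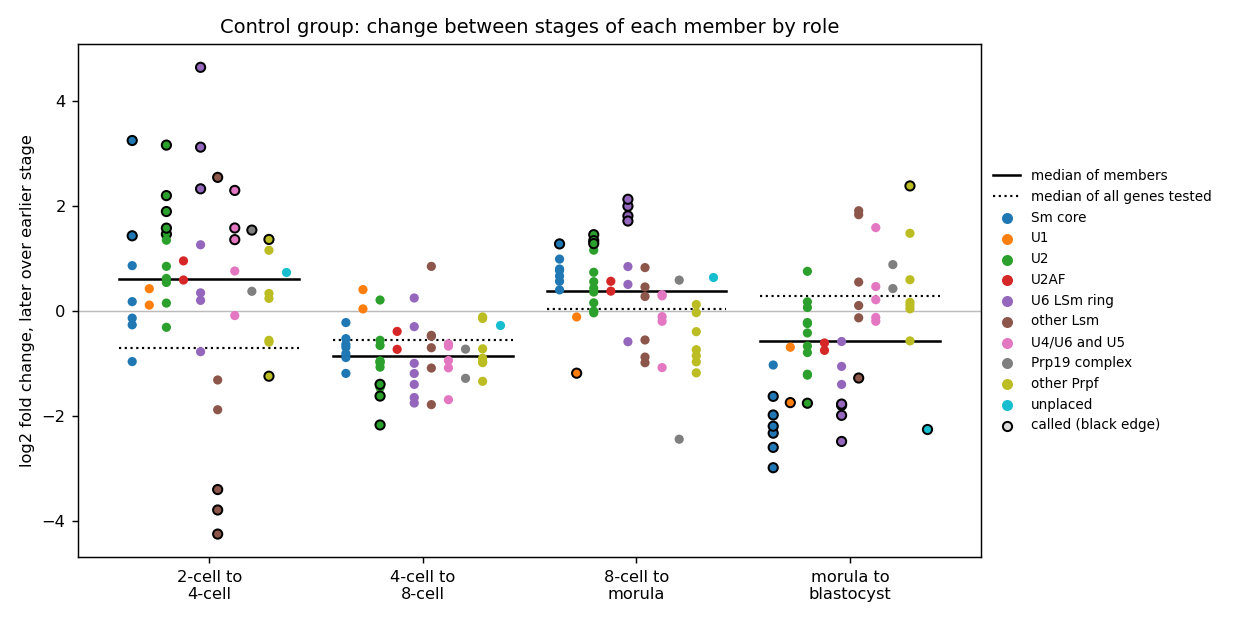
Log2 fold change between successive stages of the control group for each gene, coloured by role, with called genes outlined in black, the median of the spliceosome genes as a solid line and that of all genes tested as a dotted line. The set lies above all genes from the 2-cell to the 4-cell stage (median 0.60 against −0.72) and below them from morula to blastocyst (−0.58 against 0.28).

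From the 4-cell to the 8-cell stage 3 genes were lower and none higher, where 6.31% of all genes were called, 1.14% higher and 5.17% lower. These were subunits of SF3b: Sf3b3 (−2.18 ± 0.41 SE, adjusted p = 0.00311), Sf3b4 (−1.63 ± 0.44, 0.0268) and Sf3b1 (−1.41 ± 0.40, 0.0351). Sf3b3 was at 231, 316 and 596 in 4-cell libraries and at 62.0, 82.0, 70.8 and 66.3 in the 8-cell libraries, without overlap. Sf3b4 was at 137, 195 and 268 and then at 77.7, 60.2, 40.6 and 68.0, also apart. Sf3b3 overlaps exons of Cog4 and Sf3b4 those of Gm17690, and Sf3b4 has a near-identical copy, Gm7935. Sf3b1, which grips the branch region, was at 278, 638 and 1042 and then at 368, 329, 129 and 199, with overlap. The median over all genes was itself −0.56 here, and the difference of the set (median −0.86) from it was −0.30. With median ratio scaling and with edgeR none of the 3 was called, and DESeq2 called Sf3b3. Sf3b4 lost its call without 4 of the 10 libraries and Sf3b1 without 5. The count was 1 without 4-cell replicate 5 or 6 or 8-cell replicate 3, and 5 without 4-cell replicate 2 or 3. The transient 2-cell marker sum, given above for the 4-cell and 8-cell stages, was 0 to 41.2 in control morulae, and its part in the results on either side of the 8-cell stage was not tested. Of the lists, 10 of 63 further spliceosome genes were lower, and 1 of 19 assembly genes was higher and 4 were lower.

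From the 8-cell stage to morula 8 genes were higher and 1 lower, where 14.3% of all genes were called, 6.84% higher and 7.49% lower. The 4 largest rises were all in the U6 ring: Lsm7 (2.12 ± 0.53 SE, adjusted p = 0.00652), Lsm6 (1.99 ± 0.51, 0.00841), Lsm3 (1.80 ± 0.48, 0.0109) and Lsm5 (1.71 ± 0.49, 0.0172). Lsm7 was at 30.5, 7.99, 8.13 and 14.6 in 8-cell libraries and at 15.2, 67.7 and 114 in morulae. Lsm6 was at 13.0, 31.4, 4.64 and 14.2 and then at 24.1, 59.0 and 122. Lsm3 was at 19.4, 12.2, 20.9 and 10.0 and then at 26.1, 54.3 and 130, without overlap. Lsm5 was at 25.9, 26.6, 9.29 and 22.5 and then at 28.1, 60.9 and 146, also without overlap. Like Lsm5, Lsm6 and Lsm7 have near-identical copies elsewhere in the genome. Without 8-cell replicate 3 the calls for Lsm5 and Lsm6 were lost, and without 8-cell replicate 4 that for Lsm3. The count of called genes was 5 without replicate 1 or 4 and 4 without replicate 3.

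The gene that was lower was Snrpc, the U1 C protein at the 5′ splice site. Snrpc has near-identical copies elsewhere in the genome. It was at 831, 914, 955 and 440 in 8-cell libraries and at 207, 307 and 968 in morulae, so the stages overlapped. The change was −1.19 ± 0.35 (SE), with an adjusted p of 0.0210, and the call was lost without 8-cell replicate 1, 2 or 3. Of the lists, 5 of 64 further spliceosome genes were higher and 2 lower, and 3 of 19 assembly genes were higher and 1 lower.

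From morula to blastocyst 14 genes were lower and 1 higher, where 11.9% of all genes were called, 6.75% higher and 5.11% lower. The median was −0.58 against 0.28 over all genes. The lower genes held 6 of 7 Sm core genes, all but Snrpb (−1.04, not called), and 4 of 7 genes of the U6 ring, together with Snrpc, Sf3b6, Lsm12 and Snrpert. In contrast, no gene of U4/U6 and U5, U2AF or the Prp19 complex was called.

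Snrpf was at 55.2, 129 and 243 in morulae and at 4.73, 45.6 and 16.1 in the 3 blastocyst libraries (−2.99 ± 0.53 SE, adjusted p = 0.000333). Snrpg was at 48.2, 168 and 495 and then at 15.8, 42.8 and 18.6 (−2.61 ± 0.52, adjusted p = 0.00125). Snrpd2 was at 50.6, 111 and 335 and then at 19.5, 26.1 and 23.8 (−2.34 ± 0.47, adjusted p = 0.00129). Every blastocyst library lay below every morula library in these 3 Sm genes, and 12 of the 50 showed such a gap, against 7.88% of all genes. Lsm5 was at 28.1, 60.9 and 146 and then at 4.21, 14.6 and 19.9 (−2.49 ± 0.56, adjusted p = 0.00388), also apart. Each of the 4 has near-identical copies elsewhere in the genome, and Snrpf overlaps exons of Ccdc38 and 4933408J17Rik.

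The single gene called higher was Prpf40b, a U1-associated protein, at 7.36, 4.17 and 7.71 in blastocysts and at 0 in 11 of 13 morulae. It was named after its values were seen, and its fold change of 2.38 depends on the pseudocount. It passed the filter (a value above 1 in 3 or more libraries) only through the blastocysts, where it was high. No conclusion is drawn from its call. The 3 control blastocysts decided the number of lower genes: without replicate 1, 3 genes were called (Snrpf, Snrpg and Snrpd2), without replicate 3 there were 6, and without replicate 2 there were 9. The trophectoderm marker sum was 171 to 1652 in control morulae and 455 to 6094 in control blastocysts, and the part of cell type was not tested. Of the lists, 6 of 64 further spliceosome genes were lower and none higher, and 1 of 19 assembly genes was higher.

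**Figure D4:**
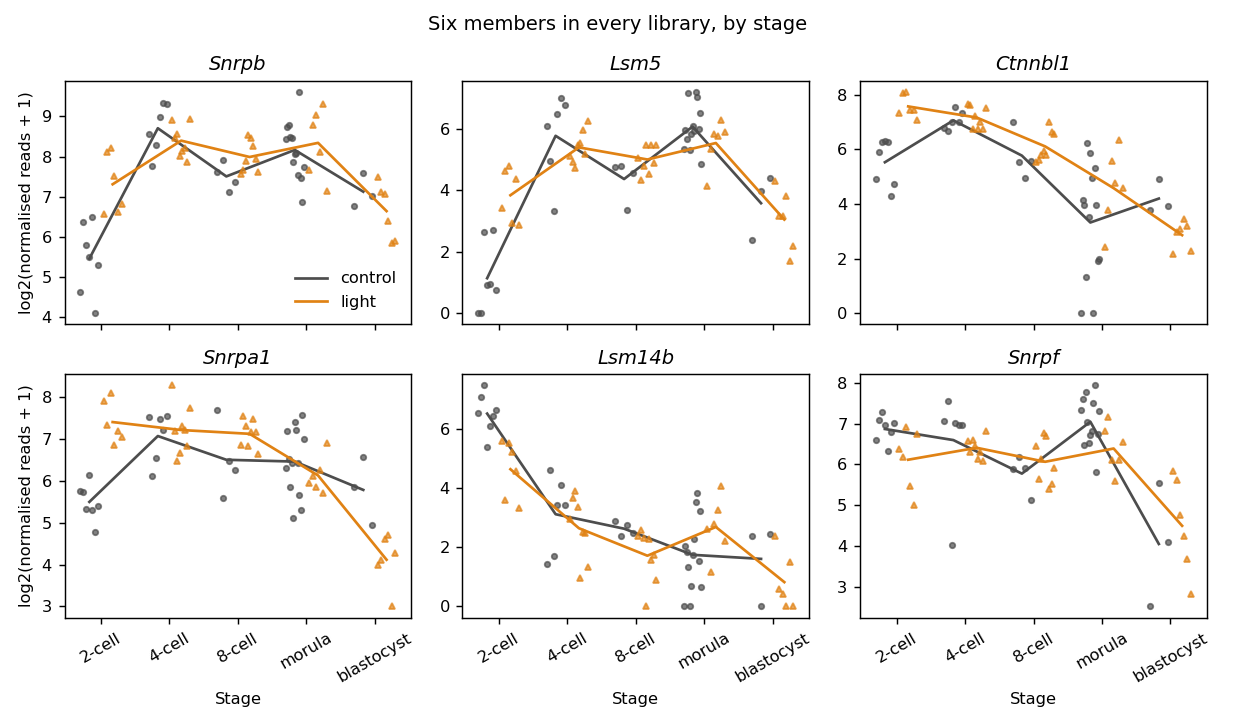
Level of Snrpb, Lsm5, Ctnnbl1, Snrpa1, Lsm14b and Snrpf in each library by stage, as log2(normalised reads + 1), with control as grey circles, light as orange triangles and lines through the group means of the log2 values. At the 2-cell stage light lies above control in Snrpb, Lsm5, Ctnnbl1 and Snrpa1 and below it in Lsm14b.

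Changes between stages were not tested within the light group, and its levels are given as values. In light, Snrpb had means of 176 ± 90.5 (SD, n = 6), 347 ± 98.2 (n = 8), 261 ± 71.4 (n = 8), 369 ± 194 (n = 6) and 109 ± 50.1 (n = 6) in the order of the stages. In control these were 49.9 ± 27.6 (n = 7), 447 ± 175 (n = 6), 185 ± 44.6 (n = 4), 320 ± 169 (n = 13) and 143 ± 43.7 (n = 3). The control mean was highest at the 4-cell stage, while the light means of 4-cell embryos and morulae differed by less than their SDs. Snrpf in light blastocysts was at 6.08, 22.0 and 56.7 (lowest, median and highest), overlapping the control blastocysts. The summed level of the 50 genes in light libraries was 6893 ± 511 CPM in 4-cell embryos, 7115 ± 439 in 8-cell embryos, 6890 ± 1036 in morulae and 5960 ± 630 in blastocysts (SD). In control the values were 7072 ± 400, 6846 ± 535, 7311 ± 630 and 4778 ± 971.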

How the data were processed

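The genes and lists were chosen with earlier results of these data known. The authors deposited 1 table of signal values, described in their methods as RPKM but found to be whole reads over a size factor per library (99.95% or more of values were whole within 0.01). The processing notes name HISAT2, HTSeq 0.9.1 and the build mm9. Exon lengths came from GENCODE M21 (GRCm38), and near-identical copies were searched with blastn 2.17.0.

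limma 3.58.1 (lmFit, eBayes with trend) was run in R 4.3.3 on log2(value + 1) on genes exceeding 1 in 3 or more compared libraries, and p-values were adjusted by Benjamini-Hochberg over all genes tested. No batch, litter or mouse was named. Alternatives were a pseudocount of 0.1, no filter, median ratio scaling, edgeR 4.0.16 and DESeq2 1.42.0 on the recovered reads, a block for the replicate number, and leaving out each library. Scripts were tested on simulated data.

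Named were the genes called after light, Ctnnbl1 at every stage, up to 4 called rises and 4 called falls per control transition with a mean of at least 10, called interactions, and the highest and lowest gene per kb in each role, of which 1 is not reported here. Depth limits genes with few reads. Protein sequences were not used here.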

Additional observations from a re-analysis of the deposited data

Results flagged for a closer look

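In 3 of the 49 groups of values tested, a single library stood apart from the others, where chance gives about 1 in 20. Sf3b6 was at 284.9 in light 2-cell replicate 14, against 124.2 to 159.3 in the others. Lsm4 was at 32.3 in control 4-cell replicate 3, against 108.2 to 163.8. Lsm5 was at 9.29 in control 8-cell replicate 3, against 22.5 to 26.6.

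The effect of light differed between the 4-cell and the 2-cell stage in 5 genes by the interaction term of limma. The difference on the log2 scale was −2.16 in Snrpb, −1.94 in Ctnnbl1, −3.08 in Lsm5, −1.76 in Snrpa1 and −2.15 in Sf3b6.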

How the results depend on the processing

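The number of spliceosome genes called moved by more than 1.5 times under the following alternatives, and the cause was not tested. In 4-cell embryos edgeR called 1 and DESeq2 2 in place of 0, and over all genes tested 190 and 754 in place of 218. In blastocysts a pseudocount of 0.1, no filter and edgeR called 0 in place of 1. From the 4-cell to the 8-cell stage median ratio scaling and edgeR called 0 and DESeq2 1 in place of 3. For the interaction a pseudocount of 0.1 called 3 in place of 5, and over all genes tested 407 in place of 627. Within 1.5 times, DESeq2 called 13 in place of 9 at the 2-cell stage and 7 in place of 5 for the interaction, edgeR called 10 in place of 15 from morula to blastocyst, and no filter called 2 in place of 3 from the 4-cell to the 8-cell stage. Over all genes tested, DESeq2 called 2770 in place of 1944 at the 2-cell stage and 1674 in place of 627 for the interaction. Likewise edgeR called 1138 in place of 1775 from morula to blastocyst, and no filter 421 in place of 847 from the 4-cell to the 8-cell stage. Median ratio scaling changed the higher and lower calls from 0 and 1 to 1 and 0 in blastocysts, and from 0 and 5 to 1 (Lsm14a) and 4 for the interaction.

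With each library left out in turn the counts ranged from 7 to 11 (2-cell), 0 to 2 (4-cell), 0 to 3 (8-cell), 0 to 0 (morula) and 0 to 3 (blastocyst) for light, from 17 to 21, 1 to 5, 4 to 10 and 3 to 16 for the control transitions in order of stage, and from 1 to 7 for the interaction. Of 598 values of named fold changes with 1 library left out, 95 lost their call and 0 changed sign.

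Replicate numbers did not pair the samples, with correlations between −0.09 and 0.07. With the replicate block, 0 genes were called at the 2-cell stage, from the 8-cell stage to morula, from morula to blastocyst and for the interaction, and 1 from the 4-cell to the 8-cell stage, while Ctnnbl1 at the 4-cell stage went from 0.10 to −0.043. Over all genes the block called 0 in each comparison it could be fitted to, except 106 from the 4-cell to the 8-cell stage. No paired analysis was possible for light in 8-cell and blastocyst embryos and for the control 2-cell to 4-cell change because the groups share fewer than 2 numbers.

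Over all genes, median ratio scaling changed higher and lower calls from 45 and 635 to 127 and 152 in blastocysts, from 153 and 694 to 203 and 75 between the 4-cell and 8-cell stages, from 819 and 457 to 645 and 627 after light in 8-cell embryos and from 54 and 125 to 140 and 141 in morulae.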
